A study of Rattus norvegicus with 24 samples.

Results

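The middle risers are 63 of the 26404 Ensembl gene IDs counted in rat liver. They were chosen by their CPM, the count of an ID per 1000000 counts of its library over all gene IDs. In vehicle the mean lay from 1 to below 1000 CPM, and at 0.3 µg/kg it lay below 1.5 times the vehicle mean. At 3 and 10 µg/kg both means were at least 2 times the vehicle mean, and every library of those doses lay above every vehicle library. Of 11030 IDs in the vehicle range, 349 had both means at least doubled, 315 of these also had no overlap with vehicle, and 63 of the 315 were below 1.5 times vehicle at 0.3 µg/kg. The files and the gene table used here did not pair Ensembl IDs with gene names, so 2 of the 63 IDs are given by number and the others by their levels.

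The livers came from 24 female Sprague-Dawley rats, an outbred stock, with 57 days as the labelled age. Sesame oil vehicle or TCDD, the chlorinated dioxin named in full 2,3,7,8-tetrachlorodibenzo-p-dioxin, was given by oral gavage every 4 days, and liver was taken on day 28. Vehicle and 7 TCDD doses (0.01, 0.03 and 0.1 µg/kg, then 0.3 and 1 µg/kg, then 3 and 10 µg/kg) had 3 libraries each, which the series calls biological replicates. Gene counts per library ranged from 11816273 to 15804887. The labels name no batch. The labelled tissue was not checked against liver marker genes, which could not be found without names. In whole liver, more cells of a type and more RNA per cell cannot be told apart.

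TCDD is a long-lived ligand of the aryl hydrocarbon receptor, a transcription factor that rests in the cytoplasm until a ligand binds it. The bound receptor enters the nucleus, pairs with its partner ARNT and binds dioxin response elements near target genes. Xenobiotic-metabolising enzymes of the liver are its best known targets, and in rodents sustained exposure is known to cause fatty change and inflammation of the liver.

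The 63 IDs were mostly of low abundance. Their vehicle means ran from 1.06 to 573 CPM with a median of 5.78 CPM, and 40 IDs lay below 10 CPM, 16 from 10 to below 100 CPM and 7 at 100 CPM or more. The lowest count of a member in a vehicle library was 6. A count of 3, taken as the limit of detection, corresponded to at most 0.253 CPM in a vehicle library. Together the members took 0.339% ± 0.0378 of gene counts in vehicle (SD, n = 3), and 5 of them held 62.5% of the members' summed CPM at 3 µg/kg.

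The values that chose the members are given as a description. Relative to the vehicle mean, the median of the 63 ratios was 1.33 for the dose of 0.3 µg/kg. It was 2.46 for 3 µg/kg and 3.84 for 10 µg/kg. At 0.3 µg/kg the ratios ran from 0.691 to 1.499, and 53 of the 63 means lay above the vehicle mean, against 53.8% of all IDs in the same vehicle range. For 15 IDs all 3 libraries at 0.3 µg/kg lay above all vehicle libraries, as they did for 13.5% of all IDs in that range. The rule set a limit of 1.5 on this ratio and fixed vehicle below 3 and 10 µg/kg, so nothing is read from these shares. The ratios spanned 2.01 to 10.8 for 3 µg/kg, while for 10 µg/kg they spanned 2.08 to 19.95.

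By library, the median member stood at 0.935, 0.941 and 1.13 times the vehicle mean in the 3 vehicle libraries. The libraries of 0.3 µg/kg gave 1.36, 1.21 and 1.18, those of 3 µg/kg gave 2.55, 2.39 and 2.51, and those of 10 µg/kg gave 3.55, 3.64 and 3.57. None of these 4 groups overlapped, but the rule placed every library of 3 and 10 µg/kg above vehicle. It also set limits on the means of 0.3, 3 and 10 µg/kg, so nothing is read from this separation. Over all IDs in the same vehicle range the library medians stayed between 0.905 and 1.09 across the 8 groups.

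**Figure D1:**
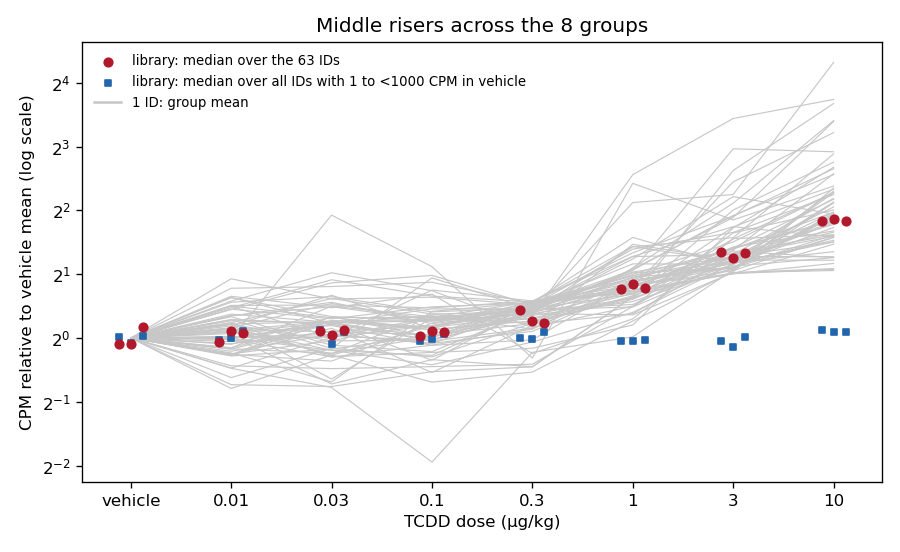
Each grey line joins the group means of 1 of the 63 IDs relative to its vehicle mean (log axis) over the 8 groups on the horizontal axis (TCDD dose in µg/kg). Red points are the median over the 63 IDs in each library and blue squares the median over all IDs with 1 to below 1000 CPM in vehicle; the red points reach 3.55 to 3.64 at 10 µg/kg.

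The doses of 0.01, 0.03, 0.1 and 1 µg/kg played no part in the choice, and their 12 libraries ask from which dose the members had moved. Ratios to vehicle still rest on libraries that the choice used, so they are a description. In single libraries of 0.01 µg/kg the median member stood at 0.954 to 1.08 times the vehicle mean. Those of 0.03 µg/kg gave 1.03 to 1.09 and those of 0.1 µg/kg 1.02 to 1.08. With the 3 libraries of a dose averaged first, the median ratio was 1.07 for 0.01 µg/kg, 1.16 for 0.03 µg/kg and 1.14 for 0.1 µg/kg.

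Single members strayed further at these doses. At 0.01, 0.03 and 0.1 µg/kg, 37, 42 and 43 of the 63 means lay above the vehicle mean, against 56.7%, 58.9% and 50.6% of all IDs in the vehicle range. At least 1 of the 3 means reached 1.5 times vehicle in 14 members, and in 10.5% of those IDs. Every library lay above all vehicle libraries in 4, 6 and 5 members at the 3 doses, against 6.11%, 7.39% and 10.5% of those IDs.

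At 1 µg/kg the median member stood at 1.71, 1.80 and 1.72 times vehicle in the 3 libraries, above every library of the lower doses and below every library of 3 µg/kg. All 63 means at 1 µg/kg lay above the vehicle mean, against 45.9% of all IDs in the vehicle range. At least 1.5 times the vehicle mean was reached by 51, against 7.36% of those IDs. For 19 it was at least 2 times, for which no share over all IDs was computed. These ratios, too, rest on the vehicle libraries that the choice used. The rule also set limits on the means of the doses next below and next above 1 µg/kg. Nothing is therefore read from the place of 1 µg/kg between those doses. The lowest 3 doses had no part in the rule.

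Counts of the 12 libraries were fitted alone with edgeR, and 1 µg/kg was compared with the mean of 0.01, 0.03 and 0.1 µg/kg. All 63 IDs passed the low-count filter of this fit. Of them, 24 (38.1%) rose and 0 fell at an adjusted p below 0.05, while 1.41% of the 12032 IDs tested rose (170 IDs) and 35 IDs fell. DESeq2 likewise called 0 members lower, with 36 higher, where 2.85% of all IDs tested rose. The median log2 fold change of the members was 0.81, and 61 of the 63 values lay above 0. Over all IDs tested, 49.98% of values lay above 0. Without adjustment 47 members had an edgeR p below 0.05 and a higher level at 1 µg/kg, as did 9.41% of all IDs tested.

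The share of a table in rows that name no gene also differed between these groups. It was 36.3% to 36.9% in the 1 µg/kg libraries, below all 9 libraries of the lower 3 doses at 37.3% to 41.4%. It was 35.8% to 36.9% at 3 µg/kg, and at 10 µg/kg, with 42.2% to 47.5%, it lay above every other library. Its part in the members' values was not tested.

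The 24 IDs that rose had log2 fold changes of 0.64 to 2.55, with a median of 1.07, standard errors of 0.104 to 0.314 and edgeR adjusted p-values of 9.46e-07 to 0.0475. In 15 of them the fitted change reached 2-fold. Of the 23 IDs at 10 CPM or more in vehicle 16 passed, and of the 40 below 10 CPM 8 passed. The 39 IDs that missed the threshold had a median log2 fold change of 0.61 and a median standard error of 0.275, against 0.158 for those that passed. Missing it does not show that these IDs were level.

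Counted by library, 27 of the 63 IDs (42.9%) had every library at 1 µg/kg above all 9 libraries of the lower 3 doses. The same held for 2.12% of all IDs tested. Of the 24 IDs that rose, 21 were among these 27.

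The count of 24 leaned on single libraries. It was 7 without replicate 2 and 13 without replicate 3 of 1 µg/kg. Without replicate 1 of 0.01 µg/kg it was 15, and with 1 µg/kg compared with 0.1 µg/kg alone it was 5. Over all IDs tested the number that rose fell too, from 170 of 12032. In the same order of settings, 44 of 12203, 61 of 12192, 97 of 12219 and 25 of 12032 rose.

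**Figure D2:**
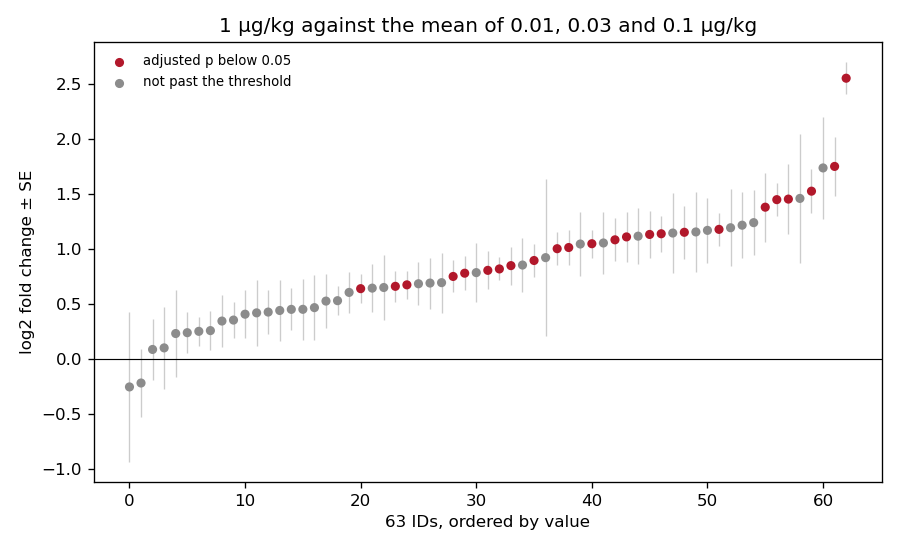
Log2 fold change with its standard error for 1 µg/kg against the mean of 0.01, 0.03 and 0.1 µg/kg (vertical axis), with the 63 IDs ordered by value. The 24 red points passed an edgeR adjusted p of 0.05, the 39 grey points did not, and 2 points lie below 0.

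Among the doses below 1 µg/kg, a test was made of 0.1 µg/kg alone. For 0.1 µg/kg against the mean of 0.01 and 0.03 µg/kg, edgeR called 0 of the 63 IDs and DESeq2 also 0. Over all 12032 IDs tested, 5 rose in edgeR (0.0416%) and 33 in DESeq2. With so few calls over all IDs, 0 among 63 does not show that the members were level. The members' median log2 fold change was 0.03, from -1.28 to 1.01, and 33 of 63 values lay above 0. Without adjustment, edgeR gave a p below 0.05 for 4 members higher and 1 lower, together 7.94% of the members, near the 6.52% of all IDs tested.

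ENSRNOG00000039776 showed the largest rise among the members that passed at 1 µg/kg. Its vehicle libraries held 22.2, 20.6 and 22.9 CPM, and its 9 libraries at the lowest 3 doses ranged from 16.7 to 27.4 CPM. At 0.3 µg/kg it stood at 30.0, 25.9 and 27.8 CPM.

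At 1 µg/kg the same ID held 91.8, 135 and 162 CPM, with no overlap with any lower group. It then stood at 216, 295 and 203 CPM at 3 µg/kg and at 267, 318 and 294 CPM at 10 µg/kg, where these 2 groups overlapped. The comparison of 1 µg/kg with the lower 3 doses gave a log2 fold change of 2.55 with an SE of 0.144 (edgeR adjusted p = 9.46e-07). Most of its increase fell between 0.3 and 3 µg/kg, from a mean of 27.9 ± 2.07 to 238 ± 49.6 CPM (SD, n = 3). The rule required every member to step up between these 2 doses, so this is a description.

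ENSRNOG00000029726, the member with the highest mean at 3 µg/kg, climbed more evenly. Vehicle held 496, 591 and 630 CPM, and the libraries of 0.01, 0.03 and 0.1 µg/kg ranged from 460.0 to 658 CPM. The values were 724, 859 and 919 CPM at 0.3 µg/kg, all above those lower groups. They were 1189, 942 and 1239 CPM at 1 µg/kg, 1244, 1549 and 1749 CPM at 3 µg/kg and 1842, 2023 and 2299.5 CPM at 10 µg/kg.

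From 0.3 µg/kg on, no 2 neighbouring doses of this ID overlapped, although the gap between 1 and 3 µg/kg was small. Its log2 fold change for 1 µg/kg against the lower 3 doses was 1.05 (SE 0.128, edgeR adjusted p = 0.00116). For 0.1 µg/kg against the lower 2 doses it was -0.001 with an edgeR adjusted p of 0.999.

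**Figure D3:**
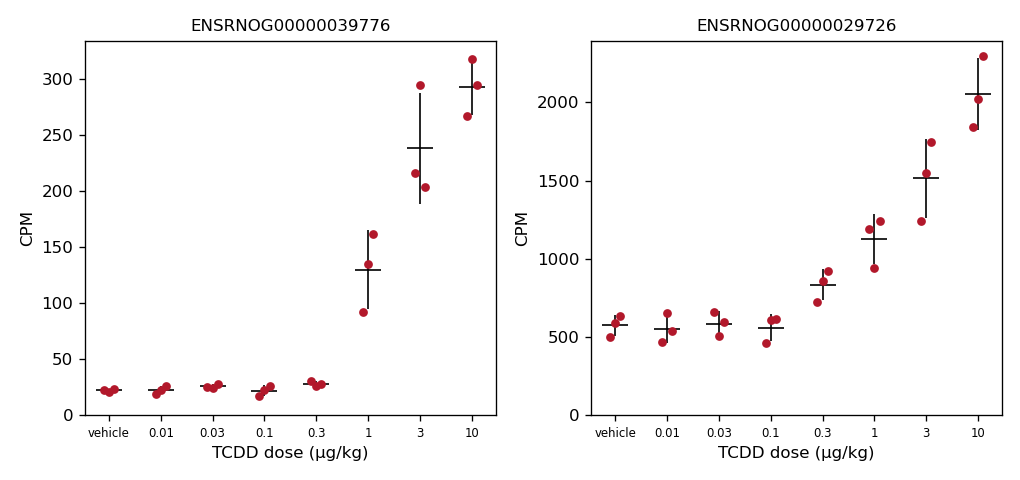
CPM of ENSRNOG00000039776 (left) and ENSRNOG00000029726 (right) in each library (red points) by TCDD dose in µg/kg, with the group mean as a bar and 1 SD as a line (n = 3). The left ID leaves its lower range at 1 µg/kg with 91.8 to 162 CPM, the right ID at 0.3 µg/kg with 724 to 919 CPM.

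Beyond 3 µg/kg the members parted. The ratio of the 10 to the 3 µg/kg mean had a median of 1.49 and ran from 0.827 to 4.20. In 32 IDs all 10 µg/kg libraries lay above all 3 µg/kg libraries, in 31 the groups overlapped, and in 0 they were lower without overlap. Over all IDs in the vehicle range, 22.6% were higher at 10 µg/kg without overlap. For 31 IDs the mean was at least 1.5 times that at 3 µg/kg and for 10 at least 2 times. For 9 IDs the means were within 1.1 times of each other. Both doses had a part in the choice, so no test is given and nothing is read from these counts.

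Measured as a share of the increase from vehicle to 10 µg/kg, the median member had covered 28.8% by 1 µg/kg and 56.8% by 3 µg/kg. At least 50% was covered by 1 µg/kg in 10 IDs, by 3 µg/kg but not 1 µg/kg in 32, and above 3 µg/kg in 21. The means of 51 IDs stood in dose order from 0.3 to 10 µg/kg. The rule fixed 0.3 below 3 µg/kg and used the vehicle, 3 and 10 µg/kg means. These shares and counts are therefore a description.

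The widest step above 3 µg/kg was seen in a member with 69.0, 93.5 and 83.0 CPM in vehicle. It held 282, 427 and 361 CPM at 1 µg/kg and 433, 378 and 356 CPM at 3 µg/kg, which overlapped, and then 1412, 1486 and 2002 CPM at 10 µg/kg. Neither 3 against 1 µg/kg nor 10 against 3 µg/kg was tested, and the overlap does not show that this ID was level between 1 and 3 µg/kg. Its change at 1 µg/kg against the lower 3 doses passed the test (log2 fold change 1.75, SE 0.268, edgeR adjusted p = 0.0061).

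A member with 163, 191 and 205 CPM in vehicle had its highest mean at 1 µg/kg instead. It held 382, 742 and 542 CPM there, 543, 324 and 352 CPM at 3 µg/kg and 374, 547 and 417 CPM at 10 µg/kg. These 3 groups overlapped, while all 9 libraries lay above every library of vehicle and the lowest 3 doses. At 0.3 µg/kg it held 335, 235 and 252 CPM, which overlapped the 3 µg/kg libraries. Its log2 fold change for 1 µg/kg against the lower 3 doses was 1.53 (SE 0.199, edgeR adjusted p = 0.00186). In 5 of the 63 IDs the mean at 1 µg/kg exceeded that at 3 µg/kg.

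The opposite shape, late and steep, was seen in a member at 1.69, 3.18 and 3.37 CPM in vehicle, or 22, 43 and 40 counts. It held 5.46, 3.28 and 4.14 CPM at 1 µg/kg, then 18.6, 11.8 and 20.5 CPM at 3 µg/kg and 21.2, 36.3 and 47.7 CPM at 10 µg/kg. Its 1 µg/kg libraries overlapped vehicle, yet lay above the 9 libraries of the lower 3 doses, which held 0.689 to 2.96 CPM. That comparison gave a log2 fold change of 1.38 with an SE of 0.312 (edgeR adjusted p = 0.0475). Of the 63 IDs, 5 had a 10 µg/kg mean at least 10 times the vehicle mean, and this was one of them.

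**Figure D4:**
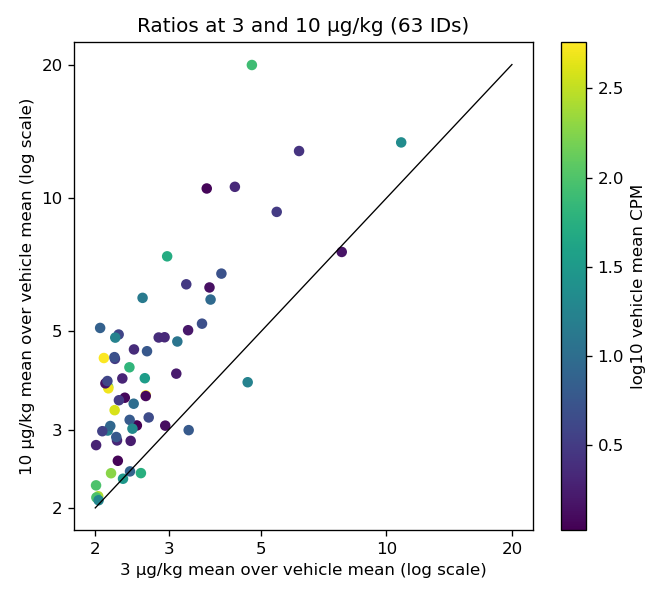
Mean at 3 µg/kg over the vehicle mean (horizontal, log axis) against the mean at 10 µg/kg over the vehicle mean (vertical, log axis), 1 point per ID, coloured by log10 of the vehicle mean CPM. The line marks equal ratios; 57 of the 63 points lie above it.

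The ratios were also read against vehicle abundance. The median ratio at 10 µg/kg was 3.97 for the 40 IDs below 10 CPM, 3.88 for the 16 from 10 to below 100 CPM and 3.59 for the 7 above. Across the 63 IDs, which share the vehicle libraries on both axes, Pearson's r of log2 vehicle CPM with the log2 ratio was -0.21 for 3 µg/kg and -0.17 for 10 µg/kg.

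The spread between replicates differed among the members. A spread of at least 3-fold between the lowest and the highest library of a group occurred in no group for 41 IDs, in 1 group for 13, in 2 groups for 4 and in 3 or more groups for 5. The median coefficient of variation over the members was 22.0% at 1 µg/kg, against 15.6% over all IDs in the same vehicle range, whose levels differ. Most of the members lay below 10 CPM in vehicle, where counting error is larger. Its part in their wider spread was not tested.

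Among the 5 IDs with wide spread, a member at 3.99, 5.47 and 4.97 CPM in vehicle fell into low and high libraries in several groups. It held 4.77, 22.0 and 28.1 CPM at 0.03 µg/kg, 4.39, 4.33 and 22.6 CPM at 0.1 µg/kg, and 5.19, 36.4 and 35.8 CPM at 1 µg/kg. At 3 µg/kg it held 22.1, 6.97 and 23.0 CPM, and at 10 µg/kg all 3 libraries were high, at 23.5 to 28.0 CPM. High libraries thus occurred at 5 of the 7 doses, and the 9 libraries of vehicle, 0.01 and 0.3 µg/kg stayed between 3.53 and 5.47 CPM. It missed the threshold at 1 µg/kg with a log2 fold change of 1.46 and an SE of 0.587 (edgeR adjusted p = 0.245).

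The member with the highest mean at 10 µg/kg varied in the same way at the low end. Vehicle held 810.1, 127 and 701 CPM, and replicate 2 at 0.03 and 0.3 µg/kg held 122 and 135 CPM, as did all of 0.1 µg/kg with 139.7 to 143 CPM. Its 1 µg/kg libraries stood at 786, 701 and 171 CPM, within the vehicle range. Only at 3 and 10 µg/kg, with 992 to 1378 and 1821 to 3035 CPM, did every library exceed vehicle. It missed the threshold at 1 µg/kg with a log2 fold change of 1.16 and an SE of 0.366 (edgeR adjusted p = 0.145).

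**Figure D5:**
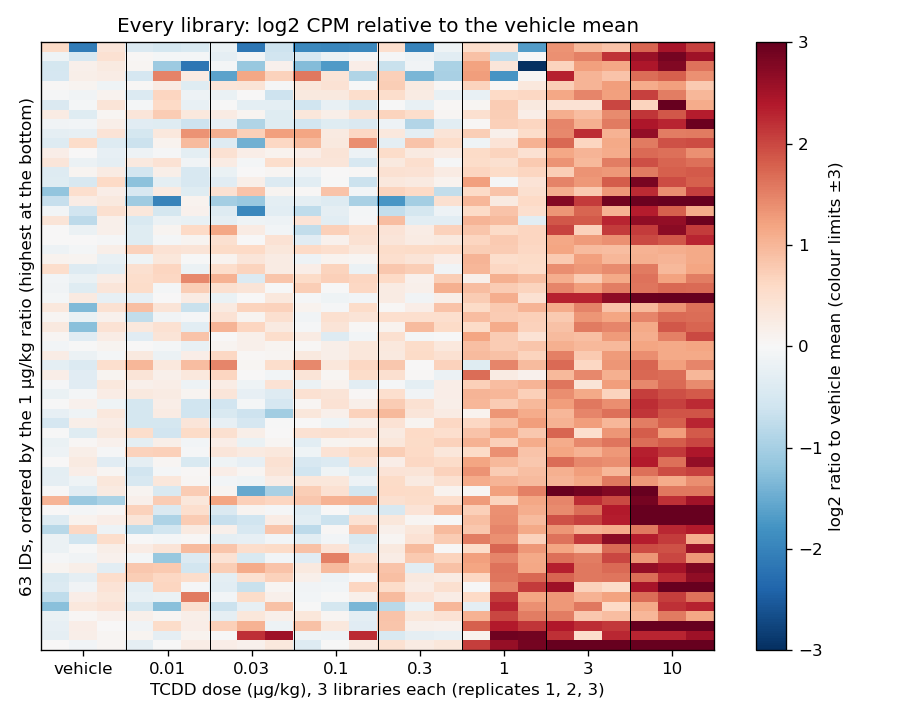
Colour shows log2 of each library's CPM relative to the vehicle mean of the same ID, for 63 IDs (rows, ordered by their 1 µg/kg ratio, highest at the bottom) and 24 libraries (columns, 3 per dose in µg/kg); values beyond 3 in either direction take the end colour. Red fills the columns of 3 and 10 µg/kg by the rule, and at 1 µg/kg the rows darken toward the bottom by the ordering.

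For reference, edgeR on all 24 libraries called 53 of the 63 IDs higher at 3 µg/kg against vehicle, where 7.94% of 12496 IDs tested rose, and 62 at 10 µg/kg, where 14.7% rose. The choice of members rested on these contrasts, so the counts carry no weight.

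The members lay close to their limits in places. At 0.3 µg/kg the nearest ID inside stood at 1.499 and the nearest outside at 1.505 times vehicle, among 252 IDs that missed this limit alone. At 3 µg/kg the nearest values were 2.009 inside and 1.996 outside (126 IDs), at 10 µg/kg 2.081 inside and 1.983 outside (1 ID), and for the vehicle mean 1.06 CPM inside and 0.943 CPM outside (47 IDs). Another 6 IDs were lost by overlap with vehicle alone, and 0 by the upper limit of 1000 CPM.

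Neighbouring patterns were followed in the 12 libraries that the choice left unused. Another 252 IDs reached at least 1.5 times vehicle at 0.3 µg/kg and met every other condition. For 0.1 against 0.01 and 0.03 µg/kg their median log2 fold change was 0.43 and 3 rose, against 0.03 and 0 for the middle risers. Over all IDs tested, 0.0416% rose in that comparison and 1.41% at 1 µg/kg against the lower 3 doses. At 1 µg/kg against the lower 3 doses, 31 of these 252 (12.3%) rose, with a median log2 fold change of 0.36. Their median ratio to vehicle was already 1.94 at 0.1 µg/kg and was 2.00 at 1 µg/kg, against 1.14 and 1.79 for the middle risers. The smaller change thus does not mean a lower level at 1 µg/kg. Among 410 IDs doubled without overlap at 10 µg/kg but below 2 times vehicle at 3 µg/kg and below 1.5 times at 0.3 µg/kg, 35 (8.54%) rose and the median was 0.33. For the middle risers the values were 38.1% and 0.81. The difference between these sets was not tested.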

How the data were processed

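The authors deposited 1 table of raw, whole-number counts for each of the 24 libraries, with Ensembl gene IDs as rows. Per the submitters' processing notes, HTSeq 0.6.1, TopHat 1.4.1, cutadapt 1.4.1 and DESeq, besides FastQC 0.11.2 and SAMtools 0.1.2, were used. Their order and settings, the genome build, the annotation and the strand setting are not given in the sources used here, so overlapping, antisense or near-identical genes are uncertain. The 5 summary rows per table that name no gene (35.8% to 47.5% of a table) were left out.

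The members, gene lists and tests were chosen with earlier results of these data known. No ID matched the RefSeq gene table (0 of 26404), so the 27 gene and marker lists, and the promoters, could not be used. The rule for naming allowed 2 IDs without names: the largest rise at 1 µg/kg among called members with a mean of at least 5 CPM, and the highest mean at 3 µg/kg. Other members were described without their IDs and chosen after their values were seen.

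Levels are CPM over summed gene counts. Tests used edgeR 4.0.16 in R 4.3.3: filterByExpr, TMM scaling (factors 0.926 to 1.08) and glmQLFTest, with Benjamini-Hochberg adjustment over all IDs tested and calls below 0.05. Fits used the 12 libraries of 0.01, 0.03, 0.1 and 1 µg/kg (12032 IDs, 8 residual degrees of freedom) or, against vehicle, all 24 (12496 IDs). The standard error is the log2 fold change divided by the square root of F. Pairs of replicates differed by more than sampling noise, by a chi-square of 13.0 to 54.3 for each degree of freedom. The pipeline was tested on simulated data. Alternatives were DESeq2 1.42.0, RLE scaling, other filters and fits, the replicate number as a block, and leaving out each library.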

Additional observations from a re-analysis of the deposited data

How the results depend on the processing

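RLE scaling, both other low-count filters, a fit on all 24 libraries and every omission of a library kept the 2 named IDs past the threshold at 1 µg/kg, with log2 fold changes of 2.37 to 2.74 and 0.98 to 1.16 under the omissions. For 1 µg/kg against the lower 3 doses, the 205 IDs called became 496 in DESeq2 and 27 against 0.1 µg/kg alone, and 49 to 647 when a library was left out: 111 without replicate 1 of 0.01 µg/kg, 134 without replicate 1 of 0.1 µg/kg, and 647, 49 and 65 without replicates 1, 2 and 3 of 1 µg/kg. The 24 members called became 5 against 0.1 µg/kg alone and 7 to 27 under the omissions. For 0.1 µg/kg, the 5 IDs called became 34 in DESeq2 and 1 to 3 under the omissions, with 0 members in each. At 3 µg/kg against vehicle, 1657 IDs became 757 in a fit of the 2 groups alone and 812 to 1474 under the omissions (812 without vehicle replicate 2, 935 without 3 µg/kg replicate 3), and members called were 45 to 52 under the omissions. At 10 µg/kg the omissions gave 2618 to 3393 IDs and 57 to 61 members. The cause of these shifts was not tested.

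The number of members was 23 with the excess over vehicle allowed at 0.3 µg/kg lowered from 50% to 25%, 78 with TMM-scaled CPM, of which 59 were shared, and 61 to 83 when a library was left out. Without vehicle replicate 3, 41 of the 63 IDs were shared, and without 3 µg/kg replicate 2, where 83 qualified, 58.

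Same-numbered libraries of the 12 correlated in their deviations from group means at -0.189 to 0.266, above 0.1 in 8 of 18 pairs. Between vehicle and 10 µg/kg the values were 0.091 to 0.362, and between vehicle and 3 µg/kg -0.0136 to 0.101. No such correlation was computed for libraries of different numbers, so whether replicate numbers paired the libraries cannot be told. The main fits left the replicate number out. With the replicate number as a block, 255 IDs and 27 members were called at 1 µg/kg and 3 IDs and 0 members at 0.1 µg/kg. Members with few counts are limited by depth.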

Other observations

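The lowest member count in any library was 1, in replicate 3 of 1 µg/kg, for a member at 5.06, 8.06 and 8.76 CPM in vehicle. The other libraries of that dose held 16.9 and 9.32 CPM of it, and those of 10 µg/kg 39.4, 49.7 and 22.4 CPM. Another member, at 1.46, 1.18 and 1.77 CPM in vehicle, held 10.04 to 13.4 CPM at 3 µg/kg. At 10 µg/kg it held 24.6, 4.37 and 4.38 CPM, so that a single library carried its mean there.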
